A study of Mus musculus with 4 samples.

Results

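The gene set described here comprised 8 genes of glucose uptake, glycolysis and the hypoxia response (*Slc2a3*, *Aldoc*, *Eno3*, *Bnip3*, *Egln3*, *Ddit4*, *Mxi1* and *Ndrg1*) among the 515 genes of the authors' deposited comparison of WT and *Areg*-/- Th9 cells. The genes were chosen by their known function from the rows of this comparison, with their FPKM values in both genotypes already known, so their levels and ratios are given as a description and without a test. RNA was sequenced from Th9 cells, IL-9-producing T helper cells differentiated in vitro from naïve CD4+ T cells with TGF-β1 and IL-4, in 4 samples of the C57BL/6 strain, 2 from WT mice and 2 from *Areg*-/- mice. *Areg*-/- mice lack amphiregulin, a ligand of the epidermal growth factor receptor (EGFR), in all of their cells. The study's methods describe the mice as matched for age and sex. However, *Xist*, a marker gene of female cells, was among the rows and was higher in *Areg*-/- cells (WT 15.5, *Areg*-/- 43.4 FPKM, log2 ratio 1.49). *Xist* was picked after its values were seen. Whether the genotypes differed in their share of female cells, and whether this affects the ratios given here, was not tested. The sources used here do not say whether the WT mice were littermates. The table names the WT group as one without doxycycline and says nothing of the kind for the *Areg*-/- group.

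The table holds 1 FPKM value per gene and genotype (fragments scaled by transcript length and by the number of mapped fragments, a level per length that can be compared between genes). The samples of a genotype are combined in that value. These pooled values give no spread between samples, depth per sample or interval to set against a difference, the authors' own statistics were not used, and every ratio is a single ratio of *Areg*-/- over WT without pseudocount. Every row of the table carries the authors' mark of significance, and no row has an absolute log2 ratio under 0.41, so the table shows called genes only. The study's methods also name a cut-off of over 2-fold for differential expression. Only 25.2% of all rows were over 2-fold higher and 9.90% over 2-fold lower in *Areg*-/- cells. None of the 8 genes was. *Areg* itself was not a row and was not analysed here. Of 6 Th9 markers (*Il9*, *Irf4*, *Spi1*, *Batf*, *Gata3* and *Il1rl1*) only *Il9* was a row, with 3.82 FPKM in WT cells and 1.24 FPKM in *Areg*-/- cells. Of 5 T cell markers 0 were rows, so these markers allowed no further check of the labelled cell type. From the list of 5 CD8 T and NK cell markers, *Cd8a* (2.13 and 3.32 FPKM) and *Klrd1* (1.44 and 4.403 FPKM) were rows and both were higher in *Areg*-/- cells, while 0 of 5 markers each of B cells, myeloid cells and erythroid cells were rows. Outside these lists, and picked after their values were seen, the neutrophil marker gene *Ly6g* (0.279 and 3.51 FPKM), the MHC class II genes *H2-Ab1* (16.04 and 26.1 FPKM) and *H2-Ob* (1.48 and 3.31 FPKM) and the γδ T cell receptor gene *Trdc* (1.23 and 3.23 FPKM) were also higher in *Areg*-/- cells. The part of other cell types in the values of the 8 genes was not tested, and in bulk RNA a change in the share of a cell type and a change in RNA per cell cannot be told apart.

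Cells sense oxygen through prolyl hydroxylases, which mark the α subunits of the hypoxia-inducible factors (HIF) for degradation as long as oxygen is present. When this mark is missing, HIF1α pairs with ARNT and binds short hypoxia response elements, and genes of glucose uptake, glycolysis, mitochondrial turnover and growth control are transcribed. Activated T cells depend on glycolysis for growth, and in them HIF1α is also raised by antigen receptor and mTOR signals. The question of the comparison was how loss of Areg alters the Th9 programme; EGFR and HIF1α signalling were the subject of the study.

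The core of a hypoxia response element is ACGTG or GCGTG. Promoter sequences are shown because most of the genes are known for their response to HIF. They were taken from RefSeq on GRCm38.p6, in windows from 250 bases before to 50 bases after each annotated start, and 6 of the 8 genes matched (*Aldoc*, *Eno3*, *Bnip3*, *Egln3*, *Ddit4* and *Mxi1*). Printed 5′ to 3′ on the strand of the gene are the bases before the RefSeq start that lie in no annotated exon of the gene, with every core in capitals on either strand (CACGT and CACGC are the cores read from the other strand). The intervals are chr7:138909520-138909756 (minus strand) for *Bnip3*, chr10:59951835-59952020 (minus strand) for *Ddit4*, chr12:54203875-54204124 (minus strand) for *Egln3*, chr19:53329163-53329412 (plus strand) for the second of 3 starts of *Mxi1* and chr11:70656926-70657175 (plus strand) for *Eno3*.

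Bnip3: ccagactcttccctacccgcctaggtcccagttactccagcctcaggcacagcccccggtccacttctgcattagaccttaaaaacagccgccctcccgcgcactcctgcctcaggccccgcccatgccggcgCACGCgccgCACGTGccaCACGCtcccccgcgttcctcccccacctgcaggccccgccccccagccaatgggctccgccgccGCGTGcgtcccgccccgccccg

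Ddit4: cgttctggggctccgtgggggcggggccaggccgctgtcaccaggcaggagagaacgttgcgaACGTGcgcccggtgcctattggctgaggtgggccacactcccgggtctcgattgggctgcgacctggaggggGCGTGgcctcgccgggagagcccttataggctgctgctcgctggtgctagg

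Egln3: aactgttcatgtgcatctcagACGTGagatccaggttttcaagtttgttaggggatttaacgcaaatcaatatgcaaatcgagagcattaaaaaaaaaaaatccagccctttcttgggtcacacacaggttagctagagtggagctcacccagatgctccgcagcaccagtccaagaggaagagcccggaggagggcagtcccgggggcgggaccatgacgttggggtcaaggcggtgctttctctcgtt

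Mxi1: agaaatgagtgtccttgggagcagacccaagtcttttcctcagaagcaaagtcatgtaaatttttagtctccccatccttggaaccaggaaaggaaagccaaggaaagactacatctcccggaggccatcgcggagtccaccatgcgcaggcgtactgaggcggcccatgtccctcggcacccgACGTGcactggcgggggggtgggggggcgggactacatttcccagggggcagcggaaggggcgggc

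Eno3: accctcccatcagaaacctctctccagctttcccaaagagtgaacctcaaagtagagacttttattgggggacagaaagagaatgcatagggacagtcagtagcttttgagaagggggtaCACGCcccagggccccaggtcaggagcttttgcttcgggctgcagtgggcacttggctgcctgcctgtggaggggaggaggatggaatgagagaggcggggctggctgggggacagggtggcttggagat

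The *Bnip3* window held the most cores, 5, of which 4 lay from -117 to -95, counted in bases from the RefSeq start. In its middle ACGTG occurs on both strands at once, as the palindrome CACGTG, which is also the E-box read by MYC, MAX and MXI1. *Ddit4* held ACGTG at -187 to -183 and GCGTG at -115 to -111, and *Egln3* had a single ACGTG at -229 to -225. *Mxi1* had no core at its first start, 1 ACGTG at -66 to -62 from the second and 1 ACGTG in a coding exon before the third. In *Aldoc*, whose windows at 2 starts held 4 cores, all 4 lay in annotated noncoding exon sequence, which is not printed. *Eno3*, the gene with the opposite direction, held GCGTG once, on the other strand, and no ACGTG.

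Either core was present in 6 of 6 genes with a promoter sequence, and ACGTG in 5 of 6. Among all 27025 genes in the promoter set, 46.7% held either core and 21.8% held ACGTG. Among the 379 genes of the table with a promoter sequence these shares were 61.5% and 27.2%, and they were 62.5% and 28.1% in the genes higher in *Areg*-/- cells and 58.9% and 25.0% in the lower genes. A gene with several starts has several windows, and the 6 genes had 9. Counted by window, either core was present in 8 of these 9, against 43.8% of all 32851 windows and 54.5% of the 473 windows of the table. The palindrome CACGTG was found in 1 of the 6 genes and in 8.09% of all genes. The windows of the set had a median GC content of 57.0%, against 59.3% in the table and 52.7% in all promoters. The genes were gathered as hypoxia-responsive ones, so these counts describe their sequence, and a match of 5 letters is not a binding site.

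**Figure D1:**
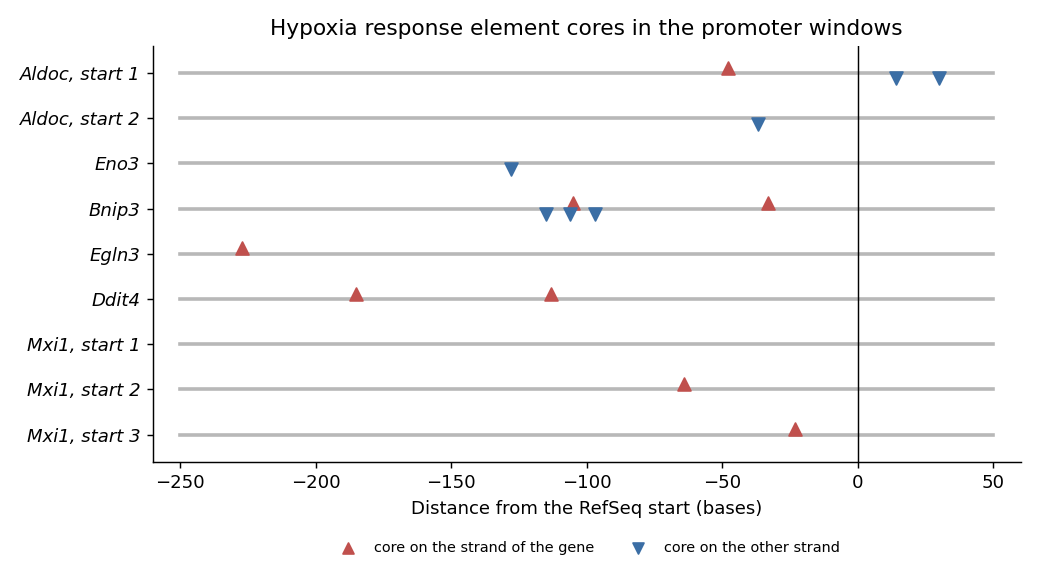
Positions of the hypoxia response element cores (ACGTG or GCGTG) in the RefSeq promoter windows of 6 genes, with the distance from the start in bases on the horizontal axis and 1 line per annotated start. Triangles pointing up are cores on the strand of the gene and triangles pointing down those on the other strand; the 5 cores of *Bnip3* and the lack of a core at the first start of *Mxi1* can be seen.

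In *Areg*-/- Th9 cells 7 of the 8 genes had a higher FPKM than in WT cells and 1, *Eno3*, had a lower FPKM. Relative to the median log2 ratio of all rows, 0.62, only *Slc2a3*, *Aldoc* and *Ndrg1* were higher. That median is over called genes only, and by definition as many rows lie above it as below. Of all 515 rows 69.1% were higher and 30.9% lower in *Areg*-/- cells, so the count of 7 of 8 follows the direction of the table, and the genes were chosen with it known. More than 1.5-fold higher were 3 of the 8 genes, against 53.6% of all rows. More than 1.5-fold lower was 1 of 8, against 21.2%. No gene of the set was over 2-fold higher or lower, whereas 25.2% of all rows were over 2-fold higher and 9.90% over 2-fold lower. The median log2 ratio of the set was 0.54, ranging from -0.69 to 0.99. Summed over the 8 genes the level was 388.6 FPKM in WT cells and 525.6 FPKM in *Areg*-/- cells.

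**Figure D2:**
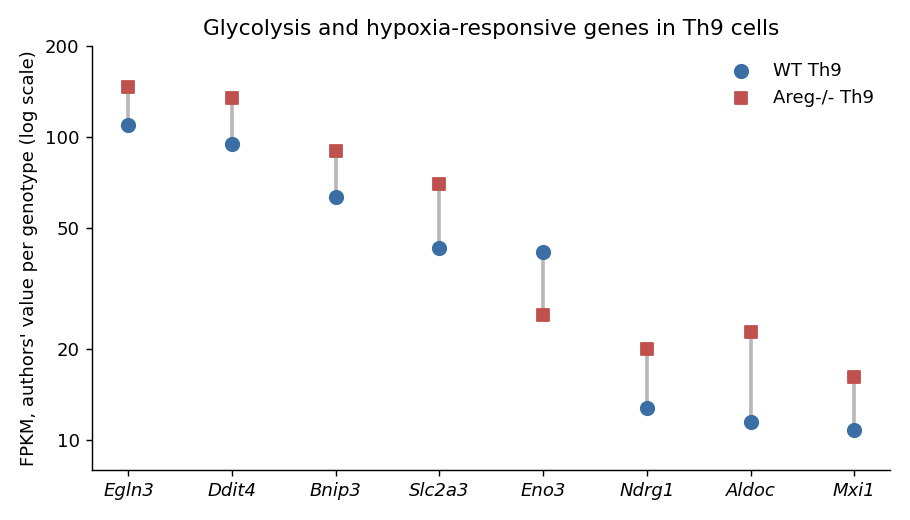
FPKM of the 8 genes on a log scale, with WT Th9 cells as circles and *Areg*-/- Th9 cells as squares, each the authors' single value per genotype, so no error can be drawn. *Eno3* lies lower in *Areg*-/- cells (41.7 and 25.9 FPKM) and the other 7 genes higher, of which *Egln3*, *Ddit4*, *Bnip3* and *Mxi1* are below the median ratio of all rows.

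Glucose uptake and glycolysis were represented by 3 genes, and they did not share a direction. *Slc2a3*, which encodes the high-affinity glucose transporter GLUT3 (ENSMUSG00000003153.10, chr6:122727809-122801640, minus strand), had 43.1 FPKM in WT cells and 70.3 FPKM in *Areg*-/- cells. This is 1.63-fold higher, a log2 ratio of 0.71, or 0.082 after subtracting the median of all rows. *Slc2a3* ranked 70 of 515 by level in WT and 48 in *Areg*-/- cells.

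*Aldoc*, the aldolase isoform best known from brain, which splits fructose bisphosphate (ENSMUSG00000017390.15, chr11:78322968-78327781, plus strand), had 11.5 FPKM in WT cells and 22.8 FPKM in *Areg*-/- cells. Its log2 ratio of 0.99, 1.98-fold, was the largest of the set (0.36 after subtracting the median of all rows). Even so *Aldoc* was only at position 134 among the 356 higher rows.

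*Eno3*, the enolase isoform best known from muscle, which forms phosphoenolpyruvate (ENSMUSG00000060600.15, chr11:70657202-70662513, plus strand), had 41.7 FPKM in WT cells and 25.9 FPKM in *Areg*-/- cells. Its level was 1.61-fold lower, a log2 ratio of -0.69, or -1.31 after subtracting the median of all rows. Among the 159 lower rows *Eno3* was at position 88 by ratio, and by level it went from rank 71 in WT to rank 124 in *Areg*-/- cells. *Aldoc* and *Eno3* act in the same pathway, *Aldoc* upstream of *Eno3*, and they were the 2 genes of the set farthest from its median.

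Among the oxygen sensors only *Egln3* was a row. *Egln3* encodes the prolyl hydroxylase PHD3, which acts on HIF and is itself a HIF target (ENSMUSG00000035105.5, chr12:54178981-54203860, minus strand). It had the highest level of the 8 genes in both genotypes, 109.8 FPKM in WT cells and 146.0 FPKM in *Areg*-/- cells. Its difference of 36.2 FPKM was second in the set, while its log2 ratio of 0.41, 1.33-fold, was the smallest of all 356 higher rows (-0.21 after subtracting the median of all rows). In the promoter shown above *Egln3* had 1 core, farther from the start than the cores printed for the other genes.

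Mitochondrial turnover and growth control were represented by *Bnip3*, *Ddit4* and *Mxi1*. *Bnip3*, a receptor on the outer mitochondrial membrane that directs mitochondria to autophagy (ENSMUSG00000078566.8, chr7:138890836-138909519, minus strand), had 63.6 FPKM in WT cells and 89.8 FPKM in *Areg*-/- cells, 1.41-fold. *Ddit4*, which encodes REDD1, an inhibitor of mTORC1 (ENSMUSG00000020108.4, chr10:59949669-59951834, minus strand), had 95.3 FPKM in WT cells and 134.6 FPKM in *Areg*-/- cells. The difference of 39.3 FPKM was the largest of the set. The log2 ratios of *Bnip3* and *Ddit4* were the same at 2 decimals, 0.50, and both were -0.13 after subtracting the median of all rows.

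*Mxi1*, a partner of MAX that opposes MYC (ENSMUSG00000025025.13, chr19:53310518-53375810 in the annotation used here, plus strand), had 10.8 FPKM in WT cells and 16.2 FPKM in *Areg*-/- cells. The log2 ratio was 0.58, just under 1.5-fold, or -0.042 after subtracting the median of all rows. It was the lowest of the 8 genes by level in both genotypes. The single value per genotype does not separate the 9 annotated transcripts of *Mxi1*, whose starts differed in their promoter cores.

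*Ndrg1*, a stress-responsive gene named for its repression by MYC proteins (ENSMUSG00000005125.13, chr15:66929318-66969640, minus strand), had 12.8 FPKM in WT cells and 20.01 FPKM in *Areg*-/- cells. The log2 ratio of 0.64, 1.56-fold, was 0.018 after subtracting the median of all rows. By level *Ndrg1* was above *Aldoc* in WT cells and below it in *Areg*-/- cells, 20.01 against 22.8 FPKM. This was the only change of order among the 8 genes, which otherwise ran from *Egln3* through *Ddit4*, *Bnip3*, *Slc2a3* and *Eno3* to *Mxi1*. Whether neighbours in this order differ beyond the spread between samples is unknown.

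All 8 genes are protein coding and lie on 7 chromosomes, with *Aldoc* and *Eno3* on chromosome 11. An annotated gene overlaps *Slc2a3*, *Bnip3*, *Mxi1* and *Ndrg1*, on the opposite strand except for a pseudogene in *Slc2a3*, and the library kit named in the labels does not mark the strand, so the values of these 4 genes may include reads of the overlapping gene. None of the overlapping genes was a row of the table. For *Ndrg1* the locus in the table runs on to position 67013039 which is the end of the divergent noncoding gene *Gm2895*.

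The 8 genes lay above the median level of all rows in both genotypes. By level in WT cells, however, *Ndrg1*, *Aldoc* and *Mxi1* ranked only 188, 200 and 205 of 515. All 8 had at least 10 FPKM in both genotypes, against 37.7% of all rows, and their median was 42.4 FPKM in WT cells against 7.07 FPKM over all rows. In the 194 rows with at least 10 FPKM in both genotypes, a limit set after the values were seen, 67.0% were higher in *Areg*-/- cells and the median log2 ratio was 0.51, against 0.54 in the 8 genes. The 130 higher rows among them had a median log2 ratio of 0.58, the same value as the 7 higher genes of the set. The median absolute log2 ratio was 0.58 in these 194 rows, 0.61 in the 8 genes and 0.80 over all rows.

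**Figure D3:**
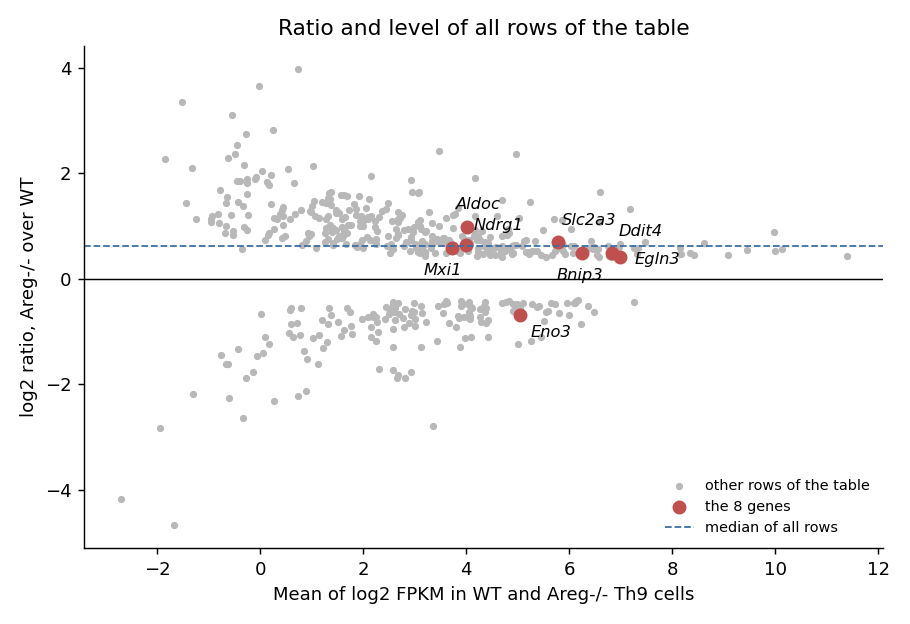
The log2 ratio of *Areg*-/- over WT for all 515 rows against the mean log2 FPKM of both genotypes, with the 8 genes in red and the median of all rows (0.62) as a dashed line. The genes lie above the median level of all rows in both genotypes, with *Ndrg1*, *Aldoc* and *Mxi1* closest to it. *Slc2a3*, *Aldoc* and *Ndrg1* are above the dashed line and the other 5 below it. The empty band around 0 reflects that the table holds called genes only.

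The row most like each gene was taken as the nearest by Euclidean distance on log2 FPKM in the 2 genotypes. It was *Avpi1* for *Ndrg1* (distance 0.020) and *Ramp3* for *Mxi1* (0.034), followed by *Pla2g12a* for *Ddit4* (0.066), *Zbp1* for *Eno3* (0.081), *Dap* for *Bnip3* (0.084) and *Tspan13* for *Slc2a3* (0.085). *Nfil3* was nearest to *Egln3* (0.13) and *Basp1* to *Aldoc* (0.19). None of these was another gene of the set, and likeness over 2 values says only that level and ratio were close.

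Of the 147 genes in 12 pathway lists around the set, 15 were rows, 13 of them higher and 2 lower in *Areg*-/- cells. Of all 515 rows 69.1% were higher, the 15 include the 8 genes, and the lists were chosen with earlier results of these data known. After centring on the median of all rows, which as many rows exceed as fall below, 5 of the 15 were higher and 10 lower. Apart from the 8 genes, 7 of 139 were rows, 6 higher and 1 lower. Genes that were not rows, among them *Slc2a1*, *Hk2*, *Ldha*, *Pgk1*, *Hif1a*, *Egln1* and *Vegfa*, were not analysed here, and nothing follows on their level.

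Among 4 glucose transporter genes *Slc2a6* was the other row, with 21.5 FPKM in WT cells and 13.2 FPKM in *Areg*-/- cells. Its log2 ratio of -0.70 was opposite to that of *Slc2a3* and of about the same size. Of 27 genes of glycolytic enzymes only *Aldoc* and *Eno3* were rows, 1 higher and 1 lower, and 0 of 10 genes of pyruvate and lactate handling and 0 of 7 of the pentose phosphate pathway were rows.

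Of 27 HIF-responsive genes, 6 were rows, and all 6 were higher in *Areg*-/- cells, as were 69.1% of all rows. Their median log2 ratio was 0.54, below the 0.62 over all rows, so that after centring only *Ndrg1* and *Ccng2* were higher. *Ccng2*, an atypical cyclin of arrested cells and the only one of the 6 outside the set, had 21.0 FPKM in WT cells and 38.3 FPKM in *Areg*-/- cells, a log2 ratio of 0.86. Of 11 HIF subunits and oxygen sensors *Egln3* alone was a row.

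The lists around *Mxi1*, *Ddit4* and *Bnip3* held further higher genes, of which only *Mycn* was above the median of all rows. *Mxd4*, like *Mxi1* a MAX partner that opposes MYC, had 4.70 FPKM in WT cells and 7.17 FPKM in *Areg*-/- cells, and *Mycn*, a MYC paralogue, 0.348 and 0.794 FPKM. *Mycn* was under 1 FPKM in both genotypes. *Sesn1*, a sestrin that restrains mTORC1 as *Ddit4* does, had 8.13 FPKM in WT cells and 12.2 FPKM in *Areg*-/- cells. *Pink1*, a kinase that starts mitophagy at damaged mitochondria, had 12.6 FPKM in WT cells and 18.8 FPKM in *Areg*-/- cells. The log2 ratios of *Mxi1*, *Sesn1* and *Pink1* were all 0.58, and that of *Mxd4* was 0.61. Of 13 genes of the ATF4 stress response *Ddit4* was the only row, of 4 genes of the NDRG family only *Ndrg1*, and of 20 genes of the tricarboxylic acid cycle only *Idh1*, with 5.62 FPKM in WT cells and 8.62 FPKM in *Areg*-/- cells.

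**Figure D4:**
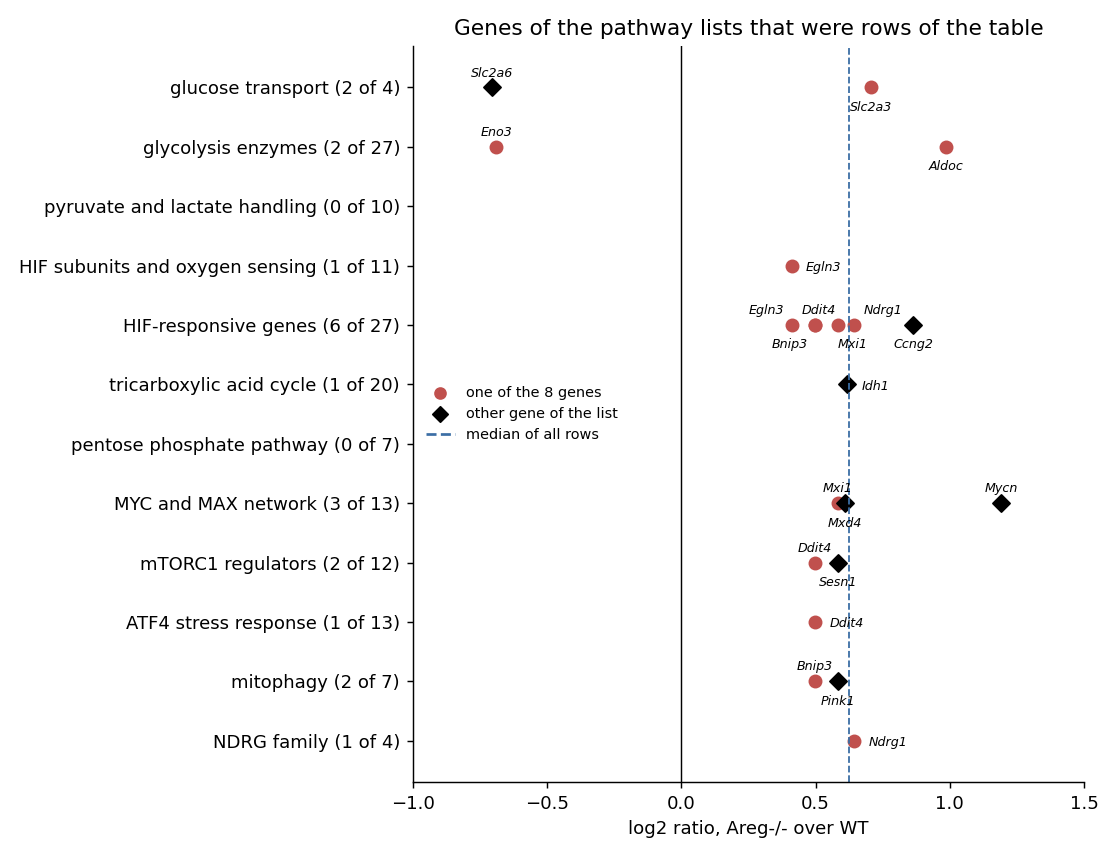
Log2 ratio of *Areg*-/- over WT for each gene of the 12 pathway lists that was a row of the table, with the number of rows and of genes per list in brackets, the 8 genes as circles, other genes as diamonds and the median of all rows (0.62) as a dashed line. Only *Slc2a6* and *Eno3* lie left of 0, and most of the others lie close to the dashed line, 8 of them left of it.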

How the data were processed

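RNA-Seq of 2 WT and 2 *Areg*-/- Th9 samples was analysed from a single deposited table. Per the labels and the methods of the study, reads were checked with FastQC, aligned with TopHat2 and Bowtie2 to GRCm38 and compared with Cuffdiff; versions of the last 3 are not given in the sources used here. The deposited FPKM are 1 value per genotype with both replicates combined by the authors, which hides the spread and depth of each sample. The deposited columns of fold change, test statistic, p-value and q-value are the authors' own comparison and were not used.

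Genes were matched by symbol. Log2 ratios were calculated without pseudocount, and the pooled values allowed no test of them. Alternatives were pseudocounts of 1 and 0.1 FPKM, centring, a minimum of 1 FPKM in a genotype and, added later, of 10 FPKM in both. Genes named are the 8 members, pathway-list genes that are rows (at most 6 per list, by absolute ratio) and the row nearest to each member; other genes named were chosen after their values were seen. The members and lists were chosen with earlier results of these data known. Coordinates come from GENCODE M21 on GRCm38 (identifier and version matched for 7 of 8 members, *Mxi1* without version) and promoters from RefSeq on GRCm38.p6. The ratio and motif steps were tested on simulated data. Python 3.11.15, numpy 2.4.6, pandas 2.3.3 and matplotlib 3.10.9 were used.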

Additional observations from a re-analysis of the deposited data

How the results depend on the processing

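No paired analysis was possible because each genotype has a single combined FPKM value. Leaving out each replicate and the replicate block were not run for the same reason. The median log2 ratio of the 8 genes, 0.54, was 0.52 with a pseudocount of 1 FPKM and -0.084 after centring on the median of all rows. Centring left 3 of the 8 genes higher in place of 7, and of the pathway-list genes 5 higher and 10 lower in place of 13 and 2. It reversed *Egln3* (-0.21), *Bnip3* (-0.13), *Ddit4* (-0.13) and *Mxi1* (-0.042). By construction it takes the same value from every row, and that median is over called genes. Pseudocounts shifted single genes by at most 0.058 and reversed none of the 8, and neither minimum FPKM removed any of them. Counting ACGTG alone left 5 of 6 genes with a core. Depth per sample is unknown, so no limit by depth can be given.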

Other observations

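Other genes known to respond to HIF, picked after their values were seen, were rows in both directions. The chemokine receptor gene *Cxcr4* had 6.26 FPKM in WT cells and 15.1 FPKM in *Areg*-/- cells, and *Nt5e*, which encodes the ectonucleotidase CD73, had 3.60 and 5.88 FPKM. The endothelin gene *Edn1* was lower, with 22.9 FPKM in WT cells and 9.42 FPKM in *Areg*-/- cells, and so was *Stc2*, which encodes a stanniocalcin, with 8.33 and 4.34 FPKM. Their log2 ratios were 1.27, 0.71, -1.28 and -0.94, and *Edn1* and *Stc2* were thus opposite in direction to the 6 rows of the HIF-responsive list.

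*Castor1*, an arginine sensor of the mTORC1 pathway (WT 23.1, *Areg*-/- 33.9 FPKM), and its paralogue *Castor2* (WT 3.66, *Areg*-/- 6.17 FPKM) were higher in *Areg*-/- cells, as were 69.1% of all rows, and *Castor1* was below the median log2 ratio of all rows. Among enzymes of carbon metabolism outside glycolysis, *Pcx* (pyruvate carboxylase) had 11.4 FPKM in WT cells and 19.9 FPKM in *Areg*-/- cells, *Pck2* (mitochondrial phosphoenolpyruvate carboxykinase) 37.6 and 51.1 FPKM, and *Acss1* (mitochondrial acetyl-CoA synthetase) 2.22 and 4.28 FPKM, of which *Pck2* was below that median. These genes were also picked after their values were seen. No list was fixed for any of these groups, and no test of them was made.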
